A study of Mus musculus with 3 samples.

Results

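The tight junction genes described here are 9 genes chosen by name in the table of accessible genes, 6 claudins (*Cldn1*, *Cldn3*, *Cldn4*, *Cldn7*, *Cldn8* and *Cldn23*), occludin (*Ocln*), the scaffold gene *Tjp1* and the adhesion gene *F11r*. All 9 were among the 18890 genes listed with an accessible region. All 9 also had a signal above 0 and at least 1 called peak in every library. Most listed genes did so too. A called peak was present for 94.2% of all genes in UK5099, 96.3% in lactate and 94.7% in vehicle. Only 1 gene was at 0 in UK5099, and 0 genes were in lactate and vehicle. The libraries are ATAC-seq, which tags open chromatin with a transposase, of organoids grown from wild-type basal cells of the mouse prostate. The table analysed holds 1 library for each treatment, 10 µM UK5099, an inhibitor of the mitochondrial pyruvate carrier, 20 mM sodium lactate, and vehicle, each given for 7 days. Primary basal cells came from male C57BL/6J mice aged 3 to 6 months. The lactate group addressed whether a rise in lactate itself bears on chromatin. The sources used here do not give the number of mice or cultures behind each library.

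Tight junctions seal the space between neighbouring epithelial cells. Claudins span the membrane and set which ions and solutes pass, occludin and junctional adhesion molecules join them at the same contacts, and scaffold proteins such as ZO-1 tie the membrane proteins to actin. In the prostate, tight junctions join luminal cells where they face the gland lumen, and claudins are regulated during epithelial differentiation.

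The value for each gene was the deposited peak height, the stacked read signal at the highest point of each region, averaged over the regions assigned to that gene and scaled by the authors. In each library at least 99.995% of genes had heights made of whole steps of 1 size, within 0.05 of a step. If the authors' scaling evened out depth, the steps put depth at 2.12 times that of UK5099 in lactate and 1.74 times in vehicle. Totals of reads were not used here. The median gene stood at 1.15 times vehicle in UK5099 (0.21 on the log2 scale) and at 1.18 times in lactate (0.23), so each ratio below is also read against the median gene, where a value of 1 means the same change as the median gene. Intervals are exact 95% counting intervals from the stacked reads of the libraries compared. They hold no variation between cultures, and with 1 library per group no difference could be tested. Both treatments share the vehicle library. In a mixed culture, fewer cells with an open region and a less open region in every cell cannot be told apart.

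As a group the 9 genes moved close to the median gene, while single claudins lay far to either side of it. Their median ratio was 1.21 in UK5099 over vehicle and 1.23 in lactate over vehicle. In UK5099, 1 of the 9 genes (*Cldn8*) reached 1.5-fold, as 9.05% of all genes did, and 0 fell to 0.5-fold, as 1.36% did. *Cldn3* was the only 1 of the 9 at or under the inverse of 1.5, where 4.05% of genes lay. In lactate, *Cldn8* was again the only 1 of the 9 to reach 1.5-fold, as 6.07% of genes did. There, 0 fell to 0.5-fold (0.513% of genes) or to the inverse of 1.5 (1.78%). All 9 were above vehicle in lactate, as were 83.1% of all genes, and 6 were above it in UK5099, as were 75.7%. Against the median gene the counts were 7 in lactate and 5 in UK5099. Of all genes, 9445 of 18890 and 9444 of 18889 lay above it.

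**Figure D1:**
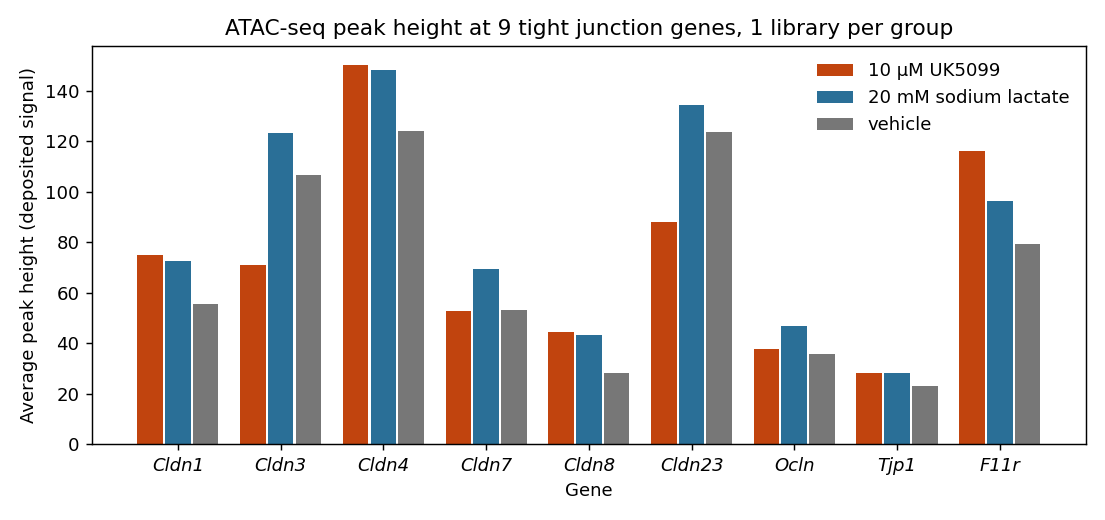
Average peak height (y axis, deposited signal, starting at 0) of the 9 tight junction genes (x axis) in the UK5099, lactate and vehicle libraries, 1 bar per library. *Cldn3* and *Cldn23* have their lowest bar in UK5099, at 71.0 and 88, whereas *Cldn4* has its lowest bar in vehicle, at 124.

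*Cldn3*, a sealing claudin of simple epithelia and a receptor for a clostridial enterotoxin, was the least accessible of the 9 in UK5099 relative to vehicle. Its height, averaged over 3 regions, was 71.0 in UK5099, 123 in lactate and 107 in vehicle, so UK5099 was the low library and lactate the high one. These heights rest on 213 stacked reads in UK5099, 785 in lactate and 557 in vehicle. The ratio over vehicle was 0.665 in UK5099 (0.565 to 0.781), which is 0.576 relative to the median gene, and only 4.02% of genes ranked at or below it. In lactate the ratio over vehicle was 1.16 (1.04 to 1.29), which is 0.983 relative to the median gene, so the direction against vehicle turned once libraries were scaled to the median gene. UK5099 over lactate was 0.576 (0.493 to 0.671), in the lowest 2.81% of genes.

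*Cldn3* lies on chromosome 5 (mm10, chr5:134986214-134987476, plus strand). A peak at its start was called in all 3 libraries, at 26 bases in UK5099, -38 in lactate and -6 in vehicle, counted along the gene from its first base. A second peak 3770 bases past the start, in an intron of the antisense gene *Wbscr25*, was also called in all 3. Another, at -4694 in intergenic sequence, was called in lactate and vehicle and not in UK5099, the library with the lowest depth by the steps. The heights are means over the 3 regions, so which of them carried the lower mean was not tested. *Wbscr25* lists all 8 of the called peaks of *Cldn3* among its own, and its ratios of 0.657 in UK5099 and 1.17 in lactate are therefore not separate measurements.

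The upstream site is shown because it is the called peak of *Cldn3* that UK5099 lacked, and the windows before the starts of *Cldn3* and *Cldn4* because these neighbouring claudins moved apart. The site is chr5:134981420-134981619, the windows are chr5:134985964-134986213 (plus strand) and chr5:134946935-134947184 (minus strand, as read along *Cldn4*), all of build GRCm38.p6, with the windows from RefSeq. Capitals mark matches to AP-1 (TGANTCA), SP/KLF (GGGCGG) and ZEB/SNAI (CAGGTG), searched on both strands. A match on the other strand appears as its reverse complement.
Cldn3 upstream site: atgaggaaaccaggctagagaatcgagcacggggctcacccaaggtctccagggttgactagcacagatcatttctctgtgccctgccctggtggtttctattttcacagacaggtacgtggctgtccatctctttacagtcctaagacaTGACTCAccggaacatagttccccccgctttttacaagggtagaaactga
Cldn3 before its start: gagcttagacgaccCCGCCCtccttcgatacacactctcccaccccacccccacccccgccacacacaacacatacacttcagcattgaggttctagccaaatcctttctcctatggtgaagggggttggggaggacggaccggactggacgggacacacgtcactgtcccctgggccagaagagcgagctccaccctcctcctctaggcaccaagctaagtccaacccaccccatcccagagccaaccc
Cldn4 before its start: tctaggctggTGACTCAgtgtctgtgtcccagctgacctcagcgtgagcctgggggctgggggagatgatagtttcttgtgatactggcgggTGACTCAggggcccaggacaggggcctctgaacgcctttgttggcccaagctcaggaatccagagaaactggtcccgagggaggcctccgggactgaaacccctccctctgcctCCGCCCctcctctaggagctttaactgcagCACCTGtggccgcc
The upstream site had a GC content of 50.5% and 1 AP-1 match, at bases 151 to 157. AP-1 letters were found in 25.8% of 200-base windows around called vehicle peaks, so the match is a common one. The *Cldn3* window (GC 60.8%) held 1 SP/KLF match, starting at base -236. The *Cldn4* window (GC 62%) held 2 AP-1 matches, starting at -240 and -158, the second close to the peak that every library had at -170. It also held an SP/KLF match at -44 and a ZEB/SNAI match at -14.

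*Cldn4*, which like *Cldn3* is an enterotoxin receptor and limits the passage of sodium, had its start 39280 bases from that of *Cldn3*, with no other listed gene lying between them. Its height over 6 regions was 150.3 in UK5099, 148 in lactate and 124 in vehicle, the tallest of the 9 in each library. Relative to vehicle the ratio was 1.21 (1.11 to 1.32) in UK5099 and 1.20 (1.11 to 1.28) in lactate, and both intervals held the median gene. UK5099 over lactate was 1.01 (0.934 to 1.10). The change of *Cldn3* divided by that of *Cldn4*, a ratio that scaling of the libraries leaves as it is, was 0.549 in UK5099 and 0.966 in lactate. 5 of the 6 peaks of *Cldn4* (chr5:134945123-134946934, minus strand) were called in all 3 libraries, and a peak 10038 bases past its start, in an intron of *Mettl27*, was called in UK5099 and lactate only. *Wbscr27*, another symbol for *Mettl27*, shares all 17 called peaks of *Cldn4*.

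*Cldn23* and *Cldn7* stood nearest to *Cldn3*. *Cldn23* (chr8:35824709-35826559, minus strand), a divergent claudin, had a height of 88 in UK5099, 134 in lactate and 124 in vehicle, all from 1 region. UK5099 was again the low library. Its ratio over vehicle was 0.712 (0.549 to 0.917) in UK5099, or 0.617 relative to the median gene, and 5.30% of genes ranked at or below it. In lactate it was 1.09 (0.907 to 1.30) over vehicle and 0.924 relative to the median gene, so that the direction depended on scaling. UK5099 over lactate was 0.655 (0.510 to 0.835). The highest point of the region lay 63 bases past the gene start in UK5099, against -193 in lactate and -225 in vehicle.

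*Cldn7* (chr11:69964779-69967886, plus strand), a claudin that binds EpCAM and is found along the lateral membrane, had a height of 53.0 in UK5099, 69.4 in lactate and 53.3 in vehicle over 3 regions. Lactate was the high library. UK5099 over vehicle was 0.995 (0.814 to 1.21), or 0.862 relative to the median gene, lactate over vehicle 1.30 (1.12 to 1.52), and UK5099 over lactate 0.764 (0.633 to 0.917). The peak of *Cldn7* lay at 565 bases past the listed start in UK5099, 629 in lactate and 597 in vehicle, near a second RefSeq start at 642, and no peak was called at the first. A peak at -2731 was called in all 3 libraries and a peak at -3499 in UK5099 only. *Elp5* shares all 7 called peaks of *Cldn7*, and *Gm19410* all 3 of *Cldn23*.

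**Figure D2:**
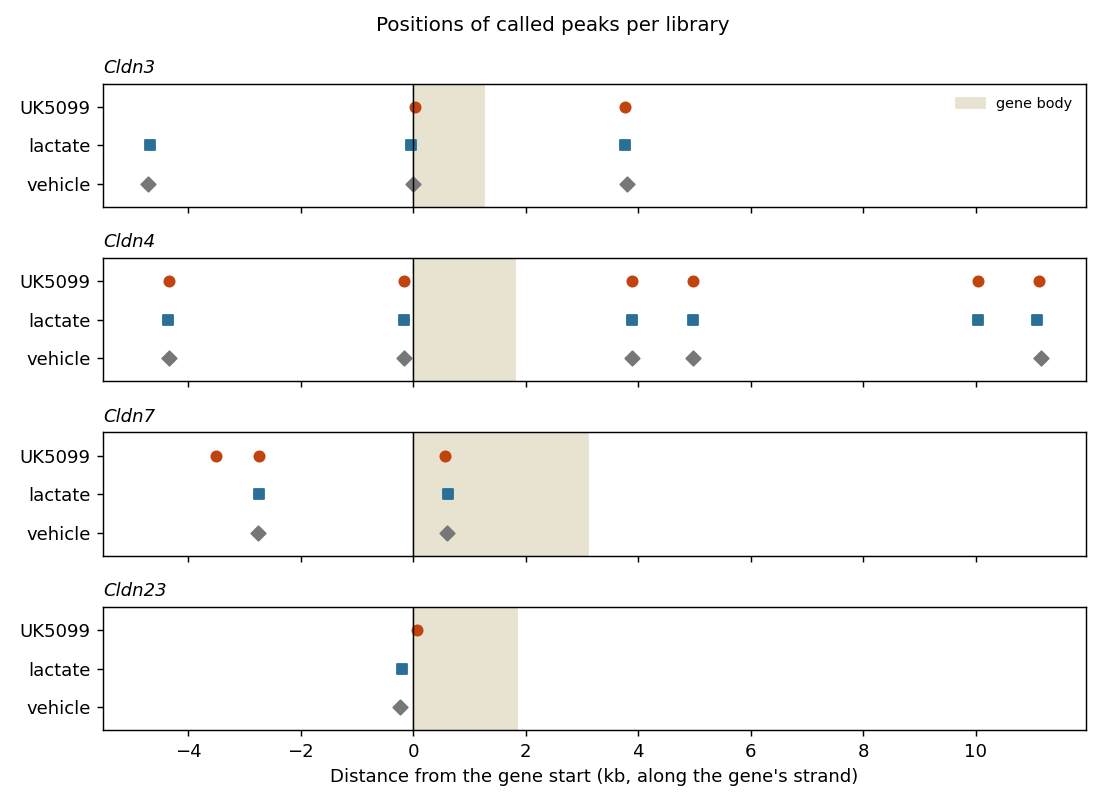
Positions of called peaks (x axis, kb from the gene start along its strand) at *Cldn3*, *Cldn4*, *Cldn7* and *Cldn23*, with 1 row of points per library and the gene body shaded. The *Cldn3* row of UK5099 lacks the point at -4694 bases seen in lactate and vehicle, and the *Cldn4* row of vehicle lacks the point at 10038 bases.

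*Cldn8* and *Cldn1* were higher under both treatments. *Cldn8* (chr16:88560826-88563183, minus strand), which in kidney takes part in paracellular chloride transport, had a height of 44.5 in UK5099, 43.3 in lactate and 28.2 in vehicle over 2 regions, vehicle being the low library. It stood over vehicle at 1.58 (1.17 to 2.13) in UK5099 and 1.54 (1.20 to 1.99) in lactate. Relative to the median gene it was 1.37 in UK5099 and 1.31 in lactate, so *Cldn8* stayed higher but under 1.5-fold on that scale. It rests on 89 stacked reads in UK5099, 184 in lactate and 98 in vehicle, and its interval in UK5099 was the widest of the 9. Its peaks at -337 and -10129 were called in all 3 libraries.

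*Cldn1* (chr16:26356645-26371839, minus strand), which is needed for the barrier of stratified epithelia such as skin, had a height of 75 in UK5099, 72.6 in lactate and 55.5 in vehicle over 2 regions. Vehicle was the low library and the treated libraries lay close together. The ratio over vehicle was 1.35 (1.09 to 1.68) in UK5099 and 1.31 (1.09 to 1.57) in lactate, with the median gene inside both intervals, and UK5099 over lactate was 1.03 (0.845 to 1.26). A peak at the base before the start and 1 about 2303 bases into the gene were called in all 3 libraries.

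Among the genes that are not claudins, *F11r* changed most in UK5099. *F11r* encodes JAM-A, an adhesion molecule of the immunoglobulin family that recruits the polarity protein PAR3. Its height over 5 regions (chr1:171437561-171464593, plus strand) was 116.4 in UK5099, 96.3 in lactate and 79.5 in vehicle, an order in which UK5099 was highest and vehicle lowest. The ratio over vehicle was 1.46 (1.31 to 1.64) in UK5099, or 1.27 relative to the median gene, and 1.21 (1.10 to 1.34) in lactate, where the median gene lay inside the interval. UK5099 over lactate was 1.21 (1.09 to 1.34). A peak at 15687 bases past the start was called in UK5099 only, a peak at 999 in lactate only, and a peak at 32327 in lactate and vehicle.

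*Ocln* (chr13:100497367-100552498, minus strand), which encodes a membrane protein of the junction strands, had a height of 37.8 in UK5099, 46.7 in lactate and 35.7 in vehicle over 10 regions. Lactate was the high library. Over vehicle the ratio was 1.31 (1.18 to 1.45) in lactate and the interval lay just above the median gene. In UK5099 it was 1.06 (0.930 to 1.21), which is 0.918 relative to the median gene and so turns direction with scaling. UK5099 over lactate was 0.810 (0.717 to 0.912). Its peak at the start lay at -302 in UK5099, -206 in lactate and -302 in vehicle, next to another RefSeq start at -220. 6 of the 24 called peaks of *Ocln* are also listed for *Gtf2h2*.

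*Tjp1* (chr7:65296165-65371244, minus strand), which encodes the scaffold protein ZO-1, had the lowest heights of the 9, with 28.4 in UK5099, 28.4 in lactate and 23.1 in vehicle over 5 regions. The treated libraries were alike. The ratio over vehicle was 1.23 in both, with intervals of 0.984 to 1.53 in UK5099 and 1.02 to 1.48 in lactate, and UK5099 over lactate was 1.0 (0.814 to 1.23). Of its 5 peak sites only the 1 at the start was called in all 3 libraries, at 172 bases in UK5099, -52 in lactate and -20 in vehicle. A peak at 3444 was called in UK5099 and lactate, 1 at 56492 in UK5099 and vehicle, 1 at 73212 in lactate and vehicle, and 1 at 51788 in lactate only.

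**Figure D3:**
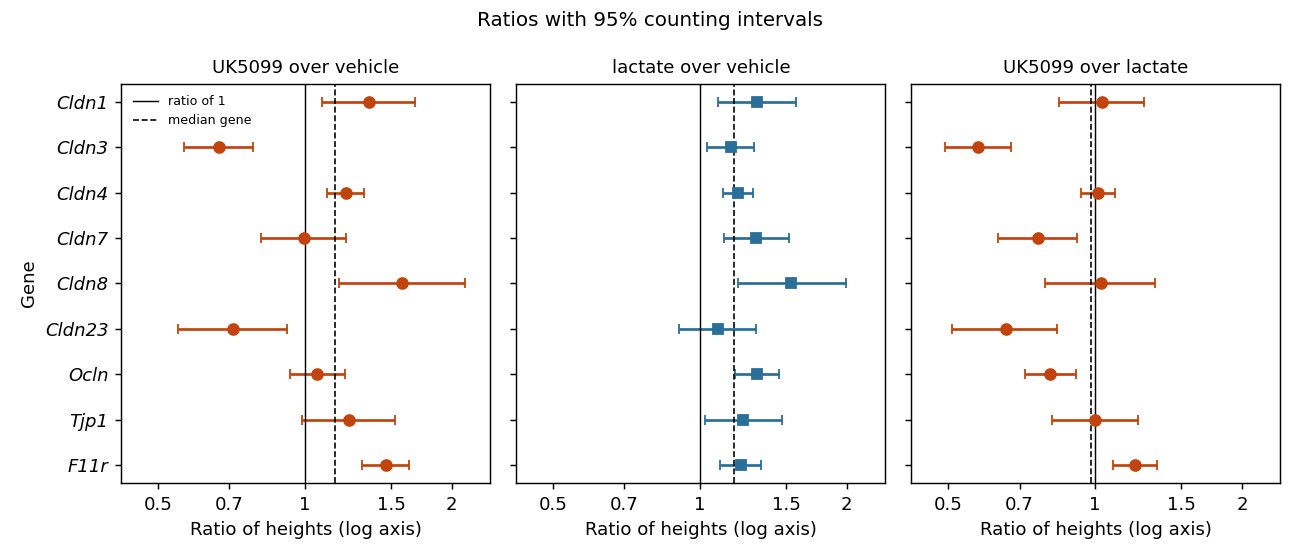
Ratio of heights (x axis, log scale) for the 9 genes (y axis) in UK5099 over vehicle, lactate over vehicle and UK5099 over lactate, as points with 95% counting intervals. The solid line is a ratio of 1 and the dashed line the median gene, at 1.15, 1.18 and 0.983. *Cldn3* at 0.665 and *Cldn23* at 0.712 lie left of both lines in UK5099 over vehicle.

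Side by side, the genes fell into different orders. In UK5099 over vehicle the order ran from *Cldn3*, *Cldn23* and *Cldn7* through *Ocln*, *Cldn4*, *Tjp1* and *Cldn1* to *F11r* and *Cldn8*. The intervals of *Cldn3* and *Cldn23* overlapped, as did those of *F11r* and *Cldn8*. The median gene lay outside the counting interval for 4 of the 9 in UK5099 over vehicle, *Cldn3*, *Cldn8*, *Cldn23* and *F11r*, as it did for 28.4% of all genes. In lactate over vehicle it lay outside for 2, *Cldn8* and *Ocln*, and for 24.6% of all genes. In UK5099 over lactate it lay outside for 5, and for 27.6% of all genes. These 5 were *Cldn3*, *Cldn7*, *Cldn23*, *Ocln* and *F11r*, of which only *F11r* was higher in UK5099. In that comparison the median of the 9 was 1.0, against 0.983 over all genes. There, 0 of the 9 reached 1.5-fold (3.71% of genes did), 0 fell to 0.5-fold (1.43%), and *Cldn3* and *Cldn23* lay below the inverse of 1.5 (5.45%). 3 of the 9 genes, *Cldn3*, *Cldn7* and *Cldn23*, were under vehicle in UK5099 and over vehicle in lactate, a pattern that 15.0% of all genes had. The other 6 were over vehicle in both, as were 68.2% of all genes. *Cldn7* was at 0.995 in UK5099, with an interval that held 1, as did that of *Cldn23* in lactate over vehicle. The pattern depended on scaling. Against the median gene, 2 of the 9, *Cldn7* and *Ocln*, were below it in UK5099 and above it in lactate, as were 17.5% of all genes. *Cldn3* and *Cldn23* were below the median gene in both treatments, as were 32.5% of all genes.

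**Figure D4:**
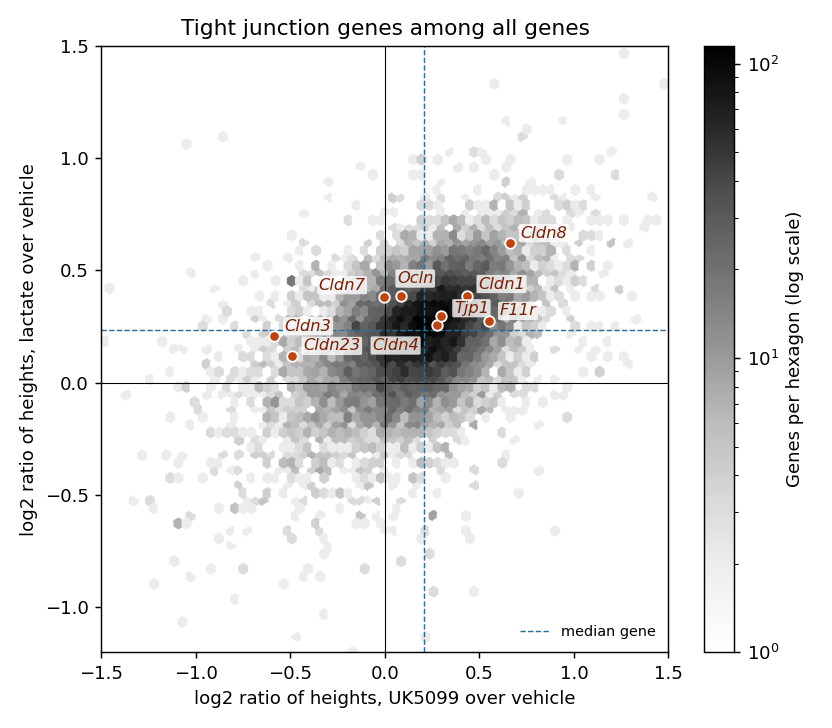
Log2 ratio of heights in UK5099 over vehicle (x axis) and lactate over vehicle (y axis) for all genes, as grey hexagons shaded by number of genes on a log scale, with the 9 genes as orange points and genes beyond the axes not drawn. Dashed lines mark the median gene, at 0.21 on x and 0.23 on y. *Cldn3* lies at -0.59 and 0.21, *Cldn23* at -0.49 and 0.12, and *Cldn8* at 0.66 and 0.62, and both axes share the vehicle library.

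In all, the 9 genes had 31 called peaks in UK5099, 34 in lactate and 29 in vehicle, where all genes together had 32375 in UK5099, 38579 in lactate and 32407 in vehicle. The ratio of called peaks over vehicle was 1.07 in UK5099 and 1.17 in lactate for the 9 genes, against 0.999 in UK5099 and 1.19 in lactate over all genes. Peaks whose highest points lay within 200 bases of the next along the gene were joined, which gave 39 sites. Of these, 23 were called in all 3 libraries, 5 in lactate and vehicle only, 4 in UK5099 only, 3 in UK5099 and lactate only, 3 in lactate only, 1 in UK5099 and vehicle only and 0 in vehicle only. Sites over all genes were formed gene by gene, so a peak listed for several genes counts at each of them. Over all genes, 52.2% of 65389 such sites were in all 3 libraries and 9.34% in lactate and vehicle only. In UK5099 only were 8.09%, and in UK5099 and lactate only 6.66%. A further 15.0% were in lactate only, 2.97% in UK5099 and vehicle only and 5.72% in vehicle only. The single region of *Cldn23* counts as 2 of the 39 sites, because its highest point in UK5099 lay more than 200 bases from both others. At the start of *Tjp1* the peaks of UK5099 and lactate also lay more than 200 bases apart. They were joined through the peak of vehicle between them and count as 1 site. Each of the other 8 genes had a site near its listed start, or near another RefSeq start, called in all 3 libraries.

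RefSeq windows of 250 bases before the start were found for 7 of the 9 genes, 9 windows in all. *Cldn8* and *Cldn23* have no entry. SP/KLF letters were found in 8 of the 9 windows, at -42 and -14 in *Cldn1* among others, and in 32.7% of 32851 windows over the genome. These letters hold only G and C, and the 9 windows, of which *Cldn7* and *Ocln* give 2 each, had a median GC content of 60.8%, against 52.4% over all windows. No comparison at matched GC content was made. AP-1 letters were found in 2 windows, those of *Cldn4* and *F11r* (at -109), against 6.75%. ZEB/SNAI letters, bound by repressors of epithelial genes, were found in 4 windows, against 17.2%. ETS letters (CCGGAAG) were found in both *Cldn7* windows, against 6.91%. Letters bound by grainyhead-like factors (AACCNGTT) were found in 0 of the 9 windows and in 1.79% of all windows. Letters bound by FOXA factors (TGTTTAC) were also found in 0, against 3.17% of all windows. The prostate factor HOXB13 (searched as CAATAAA) had a match in 0 of them, against 4.2%. The TATA box (searched as TATAAA) was found in 0, against 12.4%. No match overlapped another. These matches are descriptions of the letters only.

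The other 13 listed claudins had a median ratio of 1.01 in UK5099 over vehicle and 1.12 in lactate over vehicle. In UK5099, 0 of the 13 reached 1.5-fold, against 9.05% of all genes, and 1, *Cldn16*, was under 0.5-fold, against 1.36%. *Cldn16*, which in kidney serves magnesium uptake, had a height of 6 in UK5099, 9.89 in lactate and 14.4 in vehicle, and its ratio of 0.418 rests on 6 reads against 25 (0.140 to 1.04). *Cldn10*, an ion channel claudin, had 18.7 in UK5099, 41.0 in lactate and 26.2 in vehicle. Its ratio was 0.711 (0.512 to 0.977) in UK5099 over vehicle, 1.56 (1.27 to 1.93) in lactate over vehicle and 0.455 (0.335 to 0.610) in UK5099 over lactate. *Cldn21* was at 1.62 (1.34 to 1.96) in lactate over vehicle. *Cldn11*, known from myelin and testis, was at 1.05 in UK5099 and 0.694 in lactate over vehicle, and so at 1.51 (1.02 to 2.23) in UK5099 over lactate. *Cldn15* was under vehicle in both treatments, at 0.837 (0.626 to 1.11) in UK5099 and 0.799 (0.635 to 1.01) in lactate. *Cldn12* was at 0.890 in UK5099 over vehicle and 0.755 in UK5099 over lactate, *Cldn25* at 1.28 in UK5099 over vehicle and 1.17 in UK5099 over lactate, and *Cldn14* at 1.20 in lactate over vehicle. *Cldn6* and *Cldn9*, which are neighbours, share the same regions and values.

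Of 41 symbols listed for other tight junction and polarity genes, some of them synonyms, 36 had a value. Their median was 1.08 in UK5099 over vehicle and 1.17 in lactate over vehicle. In UK5099 over vehicle 0 of the 36 passed 1.5-fold or 0.5-fold, against 9.05% and 1.36% of all genes. *Ildr1*, which encodes an angulin of tricellular contacts, was the lowest with 45.5 in UK5099, 101 in lactate and 80.5 in vehicle. Its ratio was 0.565 (0.441 to 0.719) in UK5099 over vehicle and 0.450 (0.355 to 0.566) in UK5099 over lactate. *Inadl*, which encodes the polarity scaffold PATJ, followed at 0.775, whereas *Tbcd* was at 1.44 and *Pard3*, which encodes the PAR3 that JAM-A recruits, at 1.43. In lactate over vehicle *Scrib*, a basolateral polarity gene, was highest at 1.55 (1.31 to 1.82), followed by *Dlg3* at 1.46, and *Dlg1* was lowest at 0.896, with *Esam* next at 0.964. *Scrib* was at 0.993 in UK5099 over vehicle and 0.643 in UK5099 over lactate. In that last comparison *Tbcd* was highest at 1.21, followed by *Pard6a* at 1.14.

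**Figure D5:**
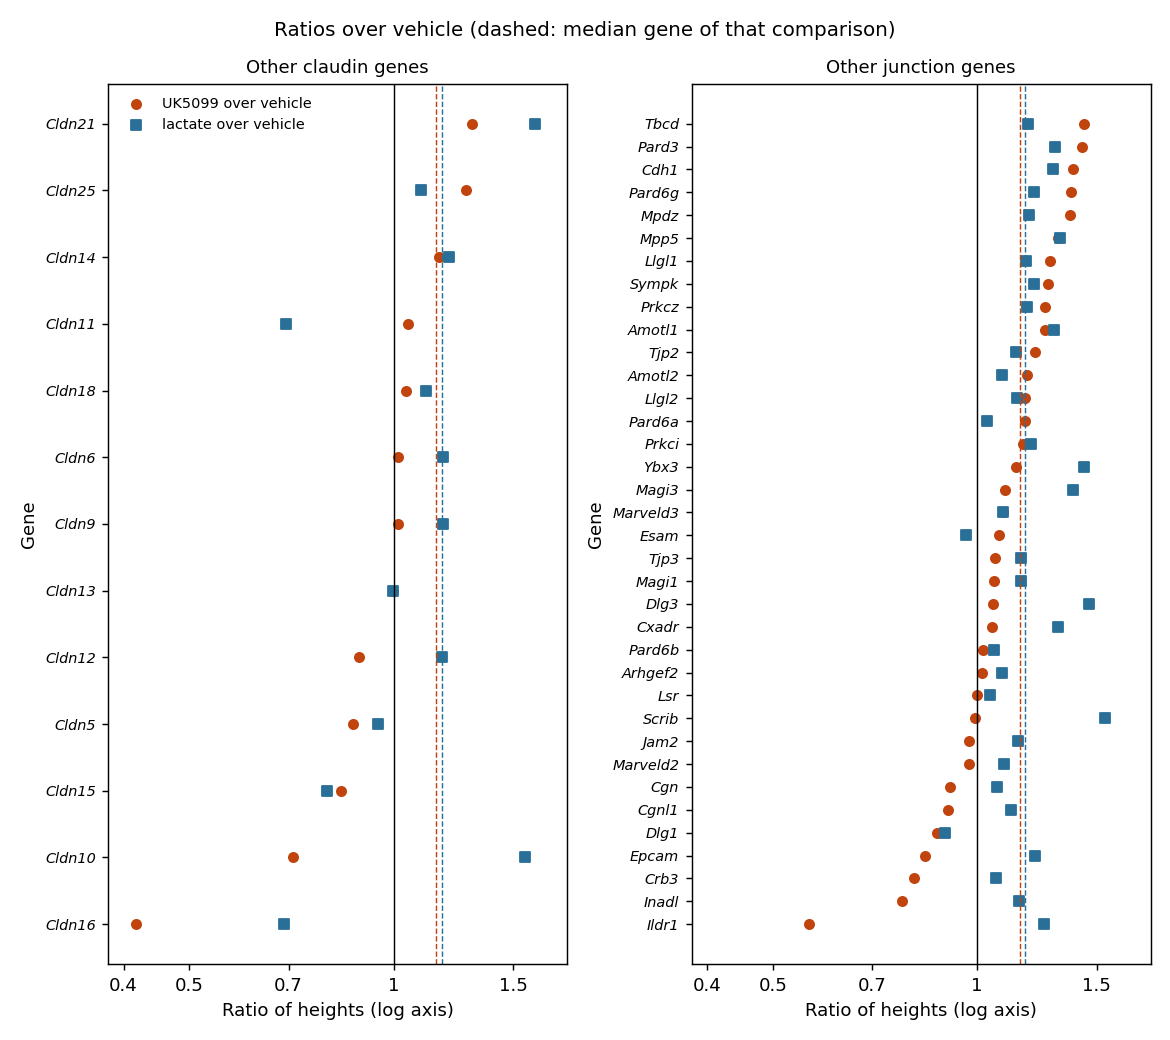
Ratio of heights over vehicle (x axis, log scale) for 13 other claudins (left) and 36 other junction genes (right), ordered by UK5099, with circles for UK5099, squares for lactate and dashed lines at the median gene of each comparison. *Cldn16* at 0.418 and *Ildr1* at 0.565 are the lowest circles of their panels, and *Cldn21* at 1.62 and *Scrib* at 1.55 the highest squares.

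Markers of several cell types were read beside these genes. The starting cells had been sorted with antibodies to EpCAM and to antigens of endothelial and blood cells. All 8 basal markers had a value in every library, with heights summing to 588 in UK5099, 568 in lactate and 425 in vehicle and median ratios over vehicle of 1.38 in UK5099 and 1.29 in lactate. The 8 luminal markers summed to 301 in UK5099, 463 in lactate and 408 in vehicle. Of these luminal markers, 7 were below the median gene in UK5099 and 3 in lactate. Of the basal markers, 7 were above the median gene in UK5099 and 8 in lactate. *Cldn3*, *Cldn7*, *Cldn23* and *Ocln* were below the median gene in UK5099, but the intervals of *Cldn7* and *Ocln* held it. *Krt18*, a luminal keratin, had 26.3 in UK5099, 69.1 in lactate and 70.1 in vehicle. The 4 stromal markers summed to 219 in UK5099, 179 in lactate and 183 in vehicle. For 3 of 4 endothelial markers the sum was 120 in UK5099, 128 in lactate and 119 in vehicle, and for 2 of 4 immune markers 160 in UK5099, 143 in lactate and 108 in vehicle. *Cdh5*, *Cd3e* and *Lyz2* are not analysed here. None of the measured markers was at 0, but only genes with an accessible region are listed. Of all listed genes only 1 was at 0 in UK5099, and 0 in lactate and vehicle. A marker above 0 therefore does not show which cell types were present. The part of cell composition in the claudin values was not tested.

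Ranked by the distance between log2 ratios, the genes most like *Cldn3* among 8502 genes of at least median height, with genes of identical values taken once, were *Wbscr25*, which shares its regions, then *Aspa*, *Mcpt8*, *Gm10282* and *A630001O12Rik*, over 2 ratios from 3 libraries. *Aspa* had 51.5 in UK5099, 91.9 in lactate and 78.5 in vehicle, and *Mcpt8* had 98 in UK5099, 165 in lactate and 143 in vehicle. The other 5 of the 10 nearest were *Obp2a*, *Enpp5*, *A530020G20Rik*, *AY512931* and *Kcnf1*, the last at a log2 distance of 0.12. Only 6 of the 9 genes, *Cldn3* among them, had at least median height. *Cldn8*, *Ocln* and *Tjp1* therefore could not enter the ranking, and none of the remaining genes of the 9 was among the 10 nearest.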

How the data were processed

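Open chromatin was profiled with ATAC-seq in 3 libraries, grouped by the treatment in the sample labels. According to the methods, cryopreserved cells were tagmented by a sequencing company, read pairs were aligned with BWA, duplicates and ambiguous reads were removed, and reads were extended to 200 bases and stacked in bins of 32 bases. BWA, MACS3 and mm10 stand in the submitters' processing notes, whereas the methods name an earlier release of MACS. The sources used here do not say whether reads were shifted for the transposase. Each library had its own peak calls, made with no control. The deposited values are a signal, the peak height averaged over the merged regions of each gene and scaled per library by the authors, and flags for a called peak. Heights come from stacked coverage and are not read counts, so no count model was run. Positions of peaks were read from the deposited lists of peaks, which also name 1 library that is not analysed here.

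Ratios of heights were taken without a pseudocount or filter, over 18889 or 18890 genes above 0, and read at 1.5 and 0.5, the thresholds the study states for genes. Exact conditional (Clopper-Pearson) 95% intervals used heights divided by the step of each library. They cover counting error only, and stacked reads are not separate molecules. The ratio function was tested on simulated data. All 9 genes are described. Other junction genes and claudins are named where they passed 1.5 or 0.5 in any comparison, or were among the 2 highest or 2 lowest ratios among genes with a mean height from 36.2 upward. Genes like *Cldn3* are the 10 nearest by Euclidean distance of both log2 ratios relative to the median gene. The genes, lists and motifs were chosen with earlier results of these data known. Alternatives changed the pseudocount, the scaling, the filter, the measure and the thresholds, or counted genes with identical heights once. Python 3.11.15, numpy 2.4.6, pandas 2.3.3, scipy 1.17.1 and matplotlib 3.10.9 were used.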

Additional observations from a re-analysis of the deposited data

How the results depend on the processing

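With 1 library per group no library could be left out. No paired analysis was possible because each group holds 1 library. In 60 of 84 alternatives a count over the 9 genes stayed within 1.5 times its value, or a median stayed inside the counting interval of the middle gene. Some of these could not change. Counting genes with identical heights once kept all 9 genes. Moving the lower cut to the inverse of 1.5 left the count at 1.5-fold or more as it was.

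In UK5099 over vehicle the 1 gene at 1.5-fold or more (*Cldn8*) became 0 with a pseudocount of 5.63 or 56.3, with libraries scaled to the median gene or to the same total, and among the 6 genes at or above the median height of 56.7, and 3 at the wider thresholds, which 32.5% of all genes passed. The count at 0.5 or less became 1 at the inverse of 1.5 and 2 at 0.8 (8.69% of all genes). The median of 1.21 became 1.07 with the larger pseudocount, 1.05 and 1.04 with the scalings, 1.10 at or above the median height and 1 by called peaks. In lactate over vehicle the count at 1.5-fold or more became 0 under the same alternatives and by called peaks, and 4 at the wider thresholds (33.1% of all genes), and the median was 1 by called peaks. In UK5099 over lactate the count at 1.5-fold or more was 1 by called peaks, and the count at 0.5 or less was 2 at the inverse of 1.5 and 3 at 0.8 (15.1% of all genes).

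Of 135 ratios of single genes under alternatives, 10 crossed 1. No pseudocount can carry a ratio across 1, and a ratio that landed on exactly 1 was not counted. The 10 of 135 is therefore not a measure of stability. In lactate over vehicle *Cldn3* was at 0.983 under both scalings and *Cldn23* at 0.924 and 0.925, and in UK5099 over vehicle *Ocln* was at 0.918 and 0.913. By called peaks, *F11r* was at 0.8, *Tjp1* at 0.75 and *Cldn7* at 1.5 in UK5099 over lactate, and *Cldn7* at 1.5 in UK5099 over vehicle. Called peaks put *Cldn1*, *Cldn8*, *Cldn23*, *Tjp1* and *F11r* at 1 in UK5099 over vehicle. They put *Cldn1*, *Cldn3*, *Cldn7*, *Cldn8* and *Cldn23* at 1 in lactate over vehicle, and *Cldn1*, *Cldn4*, *Cldn8* and *Cldn23* in UK5099 over lactate. The cause was not tested. Heights averaged over regions do not show which region changed.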
